A study of Mus musculus with 12 samples.

Results

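The genes that surround Pln on mouse chromosome 10 were examined to ask whether hearts with the R14del-PLN allele differed from hearts with WT-PLN at the targeted locus beyond Pln itself. The 10 genes were chosen by symbol as genes near Pln, with earlier results of these data known. Dcbld1, Gopc, Nus1 and Slc35f1 lie on one side of Pln, and Cep85l, Asf1a, Mcm9, Fam184a, Man1a and Hsf2 on the other. The list is not every gene of the region, since some tested genes nearer to Pln than Hsf2, such as Gja1, were left out of it. These neighbours are 10 of the 33641 genes for which values were given. Messenger RNA was sequenced from the left ventricle (LV) and right ventricle (RV) of adult mouse hearts, in 12 samples that form 4 groups of 3. The groups were the LV of WT-PLN hearts, the RV of WT-PLN hearts, the LV of R14del-PLN hearts and the RV of R14del-PLN hearts. The labels give the strain C57BL/6J and an age of 12 to 14 weeks for every sample. According to the methods, however, the founders were chimeric males of C57BL/6J and another strain, bred to Sox2-Cre mice to give a hybrid line. How much of the other strain remained around Pln is not stated and was not tested. The sample titles mark the mutant hearts as KO although Pln was not deleted in them. Both genotypes carry a modified locus. In each line the human PLN coding sequence, intact or without the codon for arginine 14, had been inserted into exon 2 of the mouse gene, together with a reporter and selection cassette that was later removed by Cre under control of the Sox2 promoter. According to the methods, R14del-PLN mice had 1 mutant and 1 intact human allele, and WT-PLN mice had intact human alleles. Mice with an unmodified Pln locus were not analysed here, so the comparison is between 2 forms of a targeted locus, and what targeting itself did to the neighbours cannot be told apart from the level in the controls.

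Phospholamban, the product of Pln, is a small protein of the sarcoplasmic reticulum that slows the calcium pump SERCA2a and so sets the speed at which cardiac muscle relaxes. Genes that lie near each other can share enhancers and chromatin domains, and a cassette or an altered sequence placed in a gene can change the transcription of its neighbours. The genes around Pln have no common function: they encode proteins of the centrosome, of DNA repair, of chromatin assembly, of the Golgi and endoplasmic reticulum, of the cell membrane and of the heat shock response, and most of them are used in many tissues, whereas Pln is largely a gene of muscle.

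In the mouse genome GRCm38 with the GENCODE M21 annotation, Pln occupies chromosome 10 from 53337667 to 53345987 on the plus strand. Cep85l, which encodes a centrosomal protein, runs in the opposite direction from 53379947 to 53273443, so that the whole of Pln lies inside it, and the exons of the pair share 141 bases. Asf1a (53596757 to 53609225, plus strand), whose product is a chaperone of histones H3 and H4, lies inside Mcm9 (53536315 to 53630439, minus strand), whose product is a DNA helicase of homologous recombination, and their exons share 1748 bases. Beyond them follow Fam184a (53633145 to 53751123, minus strand), which encodes a coiled-coil protein, and Man1a (53904785 to 54076609, minus strand), which encodes a Golgi mannosidase that trims N-glycans. On the other side of Pln lie Slc35f1 (52690533 to 53111622, plus strand), of the solute carrier family, Nus1 (52417547 to 52440183, plus strand), Gopc (52335850 to 52382124, minus strand) and Dcbld1 (52233619 to 52321378, plus strand). Nus1 encodes the accessory subunit of the cis-prenyltransferase that makes dolichol, Gopc a Golgi PDZ protein that directs membrane proteins to degradation, and Dcbld1 a membrane receptor-like protein. Hsf2, a heat shock transcription factor, is at 57486385 to 57513135 on the plus strand. Along the chromosome, the 5′ ends of 9 of the genes lie from -1104 kb (Dcbld1) to 739 kb (Man1a) relative to that of Pln, with Cep85l the nearest at 42.3 kb, and that of Hsf2 lies at 4149 kb.

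The sequences just upstream of 4 of these genes are shown because the Pln promoter and those of its neighbours are unlike in composition. They were taken from the RefSeq promoter table for GRCm38.p6, run 5′ to 3′ on the strand of the gene, and stop before the annotated transcript start. Capitals mark CG dinucleotides. The stretches are chr10:53337436-53337666 (plus strand) for Pln, chr10:53379948-53380133 (minus strand) for Cep85l, the gene that spans Pln, chr10:52417297-52417546 (plus strand) for Nus1 and chr10:57486135-57486384 (plus strand) for Hsf2, the pair of tested neighbours with the largest log2 differences between genotypes in the LV.
Pln: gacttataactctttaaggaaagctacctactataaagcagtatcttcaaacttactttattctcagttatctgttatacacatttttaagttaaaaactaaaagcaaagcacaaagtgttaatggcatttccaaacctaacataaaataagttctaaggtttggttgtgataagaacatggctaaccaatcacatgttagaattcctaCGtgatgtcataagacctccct
Cep85l: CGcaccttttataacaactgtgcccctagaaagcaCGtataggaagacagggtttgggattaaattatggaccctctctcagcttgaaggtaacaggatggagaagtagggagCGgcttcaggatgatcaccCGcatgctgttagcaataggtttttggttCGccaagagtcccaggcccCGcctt
Nus1: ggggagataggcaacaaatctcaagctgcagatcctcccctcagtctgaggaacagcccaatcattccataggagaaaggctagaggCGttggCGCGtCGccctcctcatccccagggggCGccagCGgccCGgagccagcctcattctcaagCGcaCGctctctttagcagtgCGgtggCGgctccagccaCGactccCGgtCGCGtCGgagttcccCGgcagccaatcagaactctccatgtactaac
Hsf2: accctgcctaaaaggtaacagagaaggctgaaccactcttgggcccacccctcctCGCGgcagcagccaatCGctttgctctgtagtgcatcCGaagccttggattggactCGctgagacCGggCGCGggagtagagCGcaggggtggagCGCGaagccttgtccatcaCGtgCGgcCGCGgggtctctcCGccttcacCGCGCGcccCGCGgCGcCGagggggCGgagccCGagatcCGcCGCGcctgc

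Over the 250 bases before the RefSeq start, Pln had 1 CG dinucleotide and a GC content of 32.8%. Sequences were matched for 9 of the 10 neighbours (all but Dcbld1), and their upstream 250 bases held from 10 (Cep85l) to 41 (Fam184a) CG dinucleotides, with a median of 28, against a median of 6 over all 32851 promoters of the table. Their GC content was between 58.8% and 80.4% (median 68.4%), against a median of 52.4% over all promoters. The sequence TATAAA on either strand was found upstream of Pln and of 1 neighbour, Cep85l, and in 12.4% of all promoters. CCAAT was found upstream of Pln and of 7 of 9 neighbours (33.8% of all promoters), and GGGCGG upstream of 8 of 9 neighbours but not of Pln (32.7% of all promoters). The Pln promoter was thus poor in CG, and every matched neighbour had more CG than the median promoter. These windows end at RefSeq starts. By the GENCODE positions, those of Mcm9 and Man1a lay inside the gene. The windows of Asf1a and Fam184a lay mostly inside it, and those of Pln and Cep85l partly.

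Values are in TPM, the share of all transcripts in a sample after correction for gene length, so that levels of different genes can be set side by side. The values of each sample sum to 1000000 and give no read depth, hence no counting error. Between 17924 and 18879 genes were above 0 in a sample. All 7 markers of ventricular cardiomyocytes were abundant in every sample, with a summed level of 32193 to 49096 TPM. Mitochondrially encoded genes took 37.3% to 54.5% of all TPM. Summed over Eif2s3y, Ddx3y, Uty and Kdm5d, Y-linked expression came to 0.250 TPM in RV and 0.284 TPM in LV of WT-PLN replicate 1, against 43.5 to 63.7 TPM in the other 10 samples, although the methods describe male mice, so results are also given without both of these samples. Replicate 3 of the RV of R14del-PLN hearts carries the run number 143 and the other 11 samples 136, and without it limma still called 0 of 9 neighbours in the RV. In bulk tissue, fewer cells of a type and less RNA per cell cannot be told apart. No label says that the samples of a group came from separate animals. By Y-linked expression, replicate 1 of both WT-PLN groups came from another animal than replicates 2 and 3. The p-values measure the spread between these samples, which among the others may be technical.

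All 10 neighbours were above 0 TPM in all 12 samples, at levels far below that of Pln. Pln averaged 1734 TPM over the 12 samples and ranked 32 among the listed genes. Among the neighbours, Nus1 was the most abundant at a mean of 13.3 TPM, followed by Asf1a at 12.0, Man1a at 8.21, Hsf2 at 5.92, Gopc at 4.09, Cep85l at 3.07, Mcm9 at 2.22, Dcbld1 at 1.16, Fam184a at 0.503 and Slc35f1 at 0.297 TPM. The ranges over the 12 samples were apart between Asf1a and Man1a, between Hsf2 and Gopc, and between Dcbld1 and Fam184a, and they overlapped between all other neighbours in this order. The median level of all tested genes was 5.92 TPM. Summed over the 10 neighbours, the level was 44.5 to 60.1 TPM in a sample, which was 2.61% to 3.30% of the level of Pln. Cep85l, which shares its chromosomal span with Pln, stood at 0.141% to 0.235% of Pln.

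**Figure D1:**
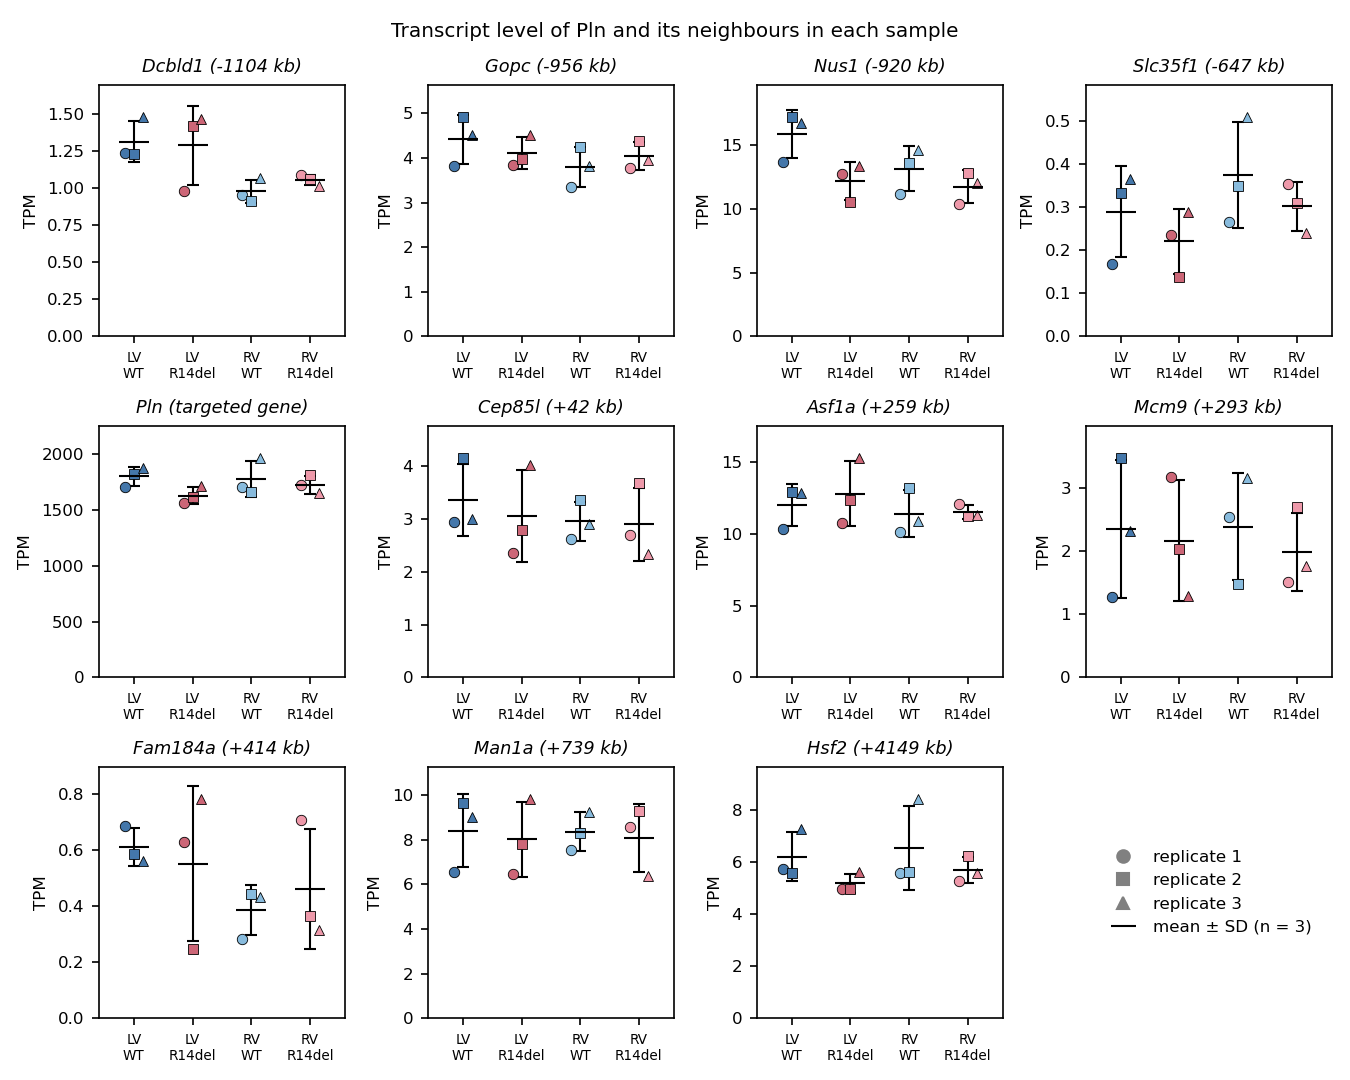
Transcript level in TPM (vertical axes, linear and from 0) of Pln and its 10 neighbours in each of the 12 samples, by ventricle and genotype, with the distance of each 5′ end from that of Pln in kb. Points are samples with the shape giving the replicate number, and lines are mean ± SD (n = 3). The points of WT-PLN and R14del-PLN hearts overlap in every panel and ventricle, except for Nus1 in the LV.

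The spread within groups differed between the neighbours. The coefficient of variation within groups was 10.4% for Gopc, 12.3% for Nus1, 13.3% for Asf1a and 13.6% for Dcbld1, near or below the median of 16.8% for all tested genes. It was 22.1% for Cep85l, 36.4% for Fam184a and 40.3% for Mcm9, and 6.23% for Pln. Of the tested neighbours, Mcm9 had the largest standard error of the log2 difference in each ventricle (0.28).

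Differences between groups were tested with limma on log2(TPM + 1) over the 12526 genes whose mean reached 0.5 TPM, and a gene was called when its adjusted p (Benjamini-Hochberg over all of these) did not exceed 0.05 and its fold change was 1.5 or more. This scale understates changes of genes at low TPM. Of the 10 neighbours, 9 passed the filter. Slc35f1 (mean 0.297 TPM) did not, and its values come from the same model fitted to all 22948 genes above 0 in any sample. Fam184a, at 0.503 TPM, was just inside.

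In the LV, none of the neighbours was called between R14del-PLN and WT-PLN hearts (0 of 9 by limma, with 0.519% of all tested genes called). At an unadjusted p of 0.05, limma marked 1 of 9 neighbours, Nus1, and 9.6% of all genes. In the RV, 0 of 9 neighbours were called (0.271% of all genes), and 0 of 9 had an unadjusted p of 0.05 or less (6.22% of all genes). For the mean difference over both ventricles, 0 of 9 were called (1.43% of all genes), and 1 of 9, again Nus1, had an unadjusted p of 0.05 or less (14.5% of all genes). The median log2 difference of the neighbours, R14del-PLN minus WT-PLN, was -0.07 in the LV (all tested genes -0.09), -0.03 in the RV (all tested genes -0.003) and -0.06 over both ventricles (all tested genes -0.05). The median of the neighbours thus lay close to that of all genes in each comparison, while single neighbours such as Nus1 lay farther away.

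**Figure D2:**
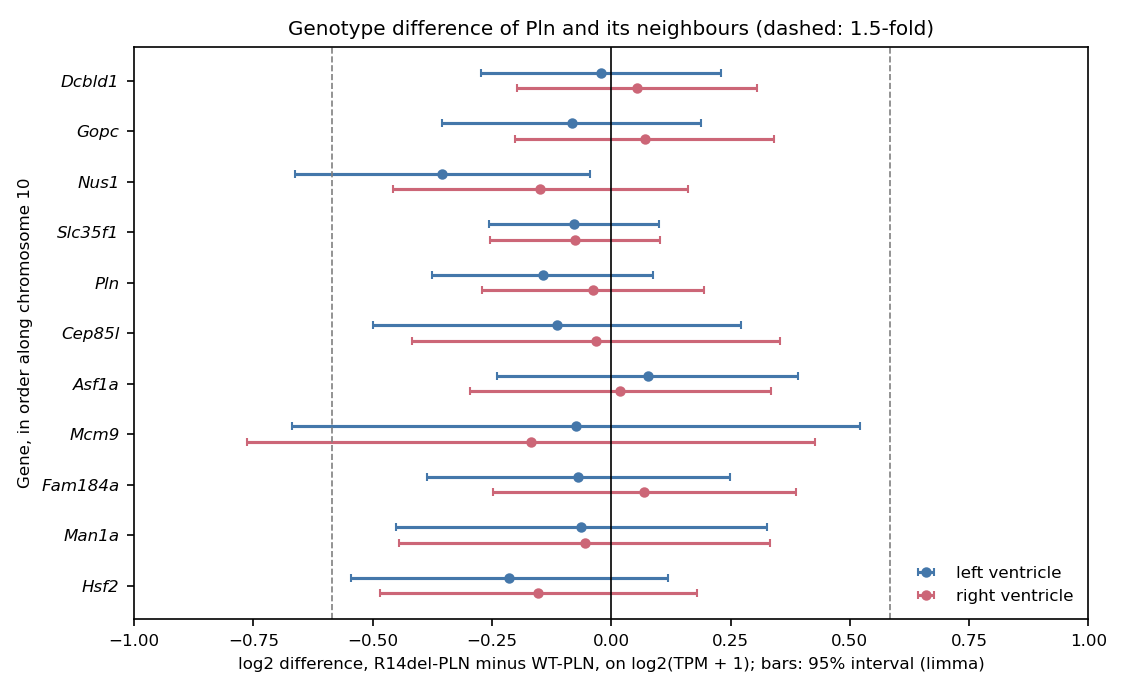
Log2 difference between R14del-PLN and WT-PLN hearts on log2(TPM + 1) (horizontal axis) for Pln and its 10 neighbours in order along chromosome 10, with 95% intervals from limma. Blue is the LV and red the RV, and dashed lines mark a 1.5-fold difference of TPM + 1. The interval of Nus1 in the LV (-0.66 to -0.04) is the only one that does not include 0, and those of Mcm9 are the widest.

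How large a difference these samples leave room for is given by the 95% intervals, as folds of TPM + 1. The interval lay within a 1.5-fold change for 7 of 9 tested neighbours in the LV (73.6% of all genes), for 8 of 9 in the RV (76.9% of all genes) and for 9 of 9 over both ventricles (87.7% of all genes). The exceptions on this scale were Nus1 in the LV and Mcm9 in either ventricle. For genes at low TPM, such as Fam184a and Cep85l, the same bounds allow larger folds of TPM itself. Pln itself, whose coding sequence is human in both genotypes, differed by -0.14 in the LV (95% interval -0.38 to 0.09, limma adjusted p = 0.746) and by -0.04 in the RV (-0.27 to 0.19, adjusted p = 1).

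Among the neighbours, Nus1 had the largest log2 difference between genotypes in the LV. Its level in the LV was 13.7, 17.2 and 16.7 TPM in the WT-PLN samples and 12.7, 10.5 and 13.4 TPM in the R14del-PLN samples (15.9 ± 1.91 against 12.2 ± 1.48, SD, n = 3 each), a difference of -23.1% in mutant hearts. Every mutant sample was below every WT sample, the nearest being 13.4 and 13.7 TPM. Ranges that did not overlap were found for 1 of 9 tested neighbours in the LV and for 11.0% of all genes. The log2 difference was -0.35 (SE 0.14, 95% interval -0.66 to -0.04), with an unadjusted limma p of 0.0281 and an adjusted p of 0.435, and 11.8% of all genes had a larger difference in either direction. A two-sided exact permutation test of the means gave p = 0.1, the smallest that 3 against 3 samples allow, and 0.947 after adjustment over 20 such tests (10 neighbours in 2 ventricles). In the RV, Nus1 was at 11.2, 13.7 and 14.7 TPM in WT-PLN and 10.4, 12.9 and 12.0 TPM in R14del-PLN samples, with overlapping ranges and a log2 difference of -0.15 (-0.46 to 0.16, limma adjusted p = 1). Over both ventricles the log2 difference of Nus1 was -0.25 (-0.47 to -0.03, limma adjusted p = 0.276). Without both WT-PLN samples numbered 1, the limma difference was -0.45 in the LV (adjusted p = 0.188) and -0.35 over both ventricles (adjusted p = 0.0962). Over all alternatives the adjusted p was 0.188 to 0.925 in the LV and 0.0962 to 0.511 over both ventricles, so the difference passed the test under none of them.

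The separation of the Nus1 groups depended on the scale. After TPM was rescaled without mitochondrially encoded genes, the LV levels of Nus1 were 25.7 to 32.7 TPM in WT-PLN and 21.3 to 26.1 TPM in R14del-PLN samples, which overlapped (exact p = 0.2), while the limma difference stayed at -0.35 (unadjusted p = 0.0181, adjusted p = 0.257). After scaling to the upper quartile, the LV means were 14.5 and 12.2 (exact p = 0.3). Other neighbours separated on those scales instead: Asf1a in the LV after upper quartile scaling (12.7 in R14del-PLN against 11.0 in WT-PLN), and Hsf2 in the LV (9.74 against 11.5) and Dcbld1 in the RV (2.21 against 1.99) without mitochondrially encoded genes, each at an exact p of 0.1, the smallest possible. The share of all genes with ranges apart on those scales is not given here, and on the deposited scale it was 11.0% in the LV and 11.0% in the RV. None of the neighbours had groups apart on all 3 scales. Mitochondrially encoded transcripts made up 44.0% to 47.3% of TPM in WT-PLN and 37.3% to 51.2% in R14del-PLN samples of the LV, and their part in the Nus1 difference was not tested beyond this rescaling. The median of all genes also moved with the scale, from -0.09 to 0.01 in the LV under quantile normalization. Relative to the median of all genes on the deposited scale, the LV difference of Nus1 was -0.27.

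Red cell markers had ranges apart between the genotypes in 1 ventricle, which was not tested. In the RV, the 4 globin genes that mark red cells summed to 1453 to 1730 TPM in WT-PLN and 953 to 1362 TPM in R14del-PLN samples, without overlap. Ranges were also apart for 11.0% of all tested genes in the RV. In the LV the ranges of the red cell sum overlapped. Markers of 5 other lists (atrial, endothelial, fibroblast, smooth muscle and macrophage) had ranges that overlapped between genotypes in both ventricles. Their part in the neighbours' levels was not tested.

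The remaining neighbours on the same side of Pln as Nus1 differed less. Gopc was at 3.82, 4.91 and 4.52 TPM in WT-PLN and 3.84, 3.97 and 4.51 TPM in R14del-PLN samples of the LV, and its log2 difference was -0.08 (-0.35 to 0.19). In the RV, Gopc was at 3.35 to 4.24 TPM and 3.77 to 4.38 TPM, with a log2 difference of 0.07 (-0.20 to 0.34). Dcbld1, the outermost gene on this side, differed by -0.02 in the LV (-0.27 to 0.23) and 0.05 in the RV (-0.20 to 0.31). Of the 4 genes on this side, Slc35f1, a transporter gene known mainly from brain, was the lowest, at 0.139 to 0.509 TPM over the 12 samples. Its mean in R14del-PLN hearts differed by -23.7% in the LV and by -19.4% in the RV, with ranges that overlapped in both and log2 differences of -0.08 and -0.08 on a scale that compresses such low values. Limma adjusted p was between 0.826 and 1 for these 3 genes.

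Cep85l, whose transcription unit contains the targeted gene, was at 2.94, 4.15 and 3.00 TPM in WT-PLN and 2.36, 2.79 and 4.03 TPM in R14del-PLN samples of the LV (3.36 ± 0.685 against 3.06 ± 0.867). In the RV it was at 2.63, 3.36 and 2.91 TPM in WT-PLN and 2.70, 3.68 and 2.33 TPM in R14del-PLN samples (2.96 ± 0.368 against 2.90 ± 0.697). The groups overlapped in both ventricles, and each group held low and high samples. The log2 difference was -0.11 in the LV (-0.50 to 0.27, limma adjusted p = 0.903) and -0.03 in the RV (-0.42 to 0.35, adjusted p = 1). Both intervals lay within a 1.5-fold change of TPM + 1. At this low level the same bounds allow a larger fold of TPM itself. Whether reads were counted by strand is not given in the sources used here, and reads from the 141 exonic bases shared with the far more abundant Pln can be told apart from those of Cep85l only if they were counted in that way.

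The nested pair Asf1a and Mcm9 differed in spread. Asf1a was at 10.4, 12.9 and 12.9 TPM in WT-PLN and 10.8, 12.4 and 15.3 TPM in R14del-PLN samples of the LV, and at 10.1, 13.2 and 10.9 TPM in WT-PLN and 12.1, 11.2 and 11.3 TPM in R14del-PLN samples of the RV. Its log2 difference was 0.08 in the LV (-0.24 to 0.39) and 0.02 in the RV (-0.30 to 0.34). Both intervals of Asf1a lay within a 1.5-fold change. Mcm9 was at 1.28, 3.46 and 2.31 TPM in WT-PLN and 3.17, 2.04 and 1.28 TPM in R14del-PLN samples of the LV, and at 2.53, 1.47 and 3.14 TPM in WT-PLN and 1.51, 2.69 and 1.76 TPM in R14del-PLN samples of the RV. Its highest sample was 2.71 times its lowest, both among the WT-PLN samples of the LV, and the log2 difference was -0.07 in the LV (-0.67 to 0.52) and -0.17 in the RV (-0.76 to 0.43). For Mcm9 these samples leave a 1.5-fold difference possible in either ventricle. Reads from the 1748 shared exonic bases cannot be told apart without strand.

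Farther out, Fam184a was at 0.688, 0.586 and 0.562 TPM in WT-PLN and 0.631, 0.246 and 0.782 TPM in R14del-PLN samples of the LV, and at 0.282 to 0.443 TPM and 0.316 to 0.708 TPM in the RV. Its log2 difference was -0.07 in the LV (-0.39 to 0.25) and 0.07 in the RV (-0.25 to 0.39). The groups overlapped, and the widest spread was in the R14del-PLN samples of the LV. Man1a was at 6.54, 9.66 and 9.04 TPM in WT-PLN and 6.45, 7.79 and 9.81 TPM in R14del-PLN samples of the LV, with log2 differences of -0.06 in the LV (-0.45 to 0.33) and -0.06 in the RV (-0.44 to 0.33). The Man1a groups overlapped in both ventricles. Hsf2, the most distant neighbour, was at 5.75, 5.59 and 7.29 TPM in WT-PLN and 4.98, 4.99 and 5.61 TPM in R14del-PLN samples of the LV, and at 5.61, 5.62 and 8.42 TPM in WT-PLN and 5.28, 6.24 and 5.60 TPM in R14del-PLN samples of the RV. The log2 difference of Hsf2 was -0.21 in the LV (-0.55 to 0.12, limma adjusted p = 0.733) and -0.15 in the RV (-0.49 to 0.18, adjusted p = 1), with ranges that overlapped by 1 pair of samples in the LV.

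The genotype difference was then compared between the ventricles. For the interaction of genotype and ventricle, limma called 0 of 9 neighbours and 0.0% of all genes, and marked 0 of 9 neighbours and 1.01% of all genes at an unadjusted p of 0.05. The interaction, RV difference minus LV difference, was between -0.09 (Mcm9) and 0.21 (Nus1, 95% interval -0.23 to 0.64), with a median of 0.08 for the neighbours and 0.08 for all genes. A larger Nus1 difference in the LV than in the RV was therefore not shown.

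Between RV and LV of one genotype, limma called 0 of 9 neighbours (0.0% of all genes) in WT-PLN hearts and 0 of 9 (0.0% of all genes) in R14del-PLN hearts. At an unadjusted p of 0.05 these counts were 0 of 9 in WT-PLN (14.5% of all genes) and 0 of 9 in R14del-PLN hearts (6.57% of all genes). The median log2 difference, RV minus LV, was -0.13 for the neighbours and -0.17 for all genes in WT-PLN hearts, and -0.05 for the neighbours and -0.08 for all genes in R14del-PLN hearts. The 95% interval lay within a 1.5-fold change of TPM + 1 for 8 of 9 neighbours in WT-PLN (65.1% of all genes) and 8 of 9 in R14del-PLN hearts (77.9% of all genes). Mcm9 was the exception in both. Ranges were apart for 2 of 9 neighbours in WT-PLN hearts (26.1% of all genes) and for 0 of 9 in R14del-PLN hearts (9.98% of all genes). The pair was Dcbld1, at 1.24, 1.23 and 1.48 TPM in the LV and 0.953, 0.915 and 1.07 TPM in the RV (log2 difference -0.23, -0.48 to 0.03, limma adjusted p = 0.375), and Fam184a, at 0.562 to 0.688 TPM in the LV and 0.282 to 0.443 TPM in the RV (-0.22, -0.54 to 0.10, limma adjusted p = 0.461). Both were lower in the RV, as were most genes on this scale, and quantile normalization moved the median of all genes in this comparison from -0.17 to 0.01.

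To place the neighbours in the wider region, every annotated gene within 5 Mb of Pln was counted. Of 155 annotated genes, 46 were listed and 20 passed the filter, namely the 9 neighbours, Pln and 10 others. Limma called 0 of the 20 between genotypes in the LV, in the RV and over both ventricles (0.519%, 0.271% and 1.43% of all genes), and marked 2, 0 and 2 of them at an unadjusted p of 0.05. The marked genes were Nus1 and Gja1. The 10 others had a median log2 difference of -0.12 in the LV and -0.04 in the RV, against -0.07 and -0.03 for the 9 neighbours. Of the genes within 1 Mb of Pln that passed the filter, all were among the neighbours examined.

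**Figure D3:**
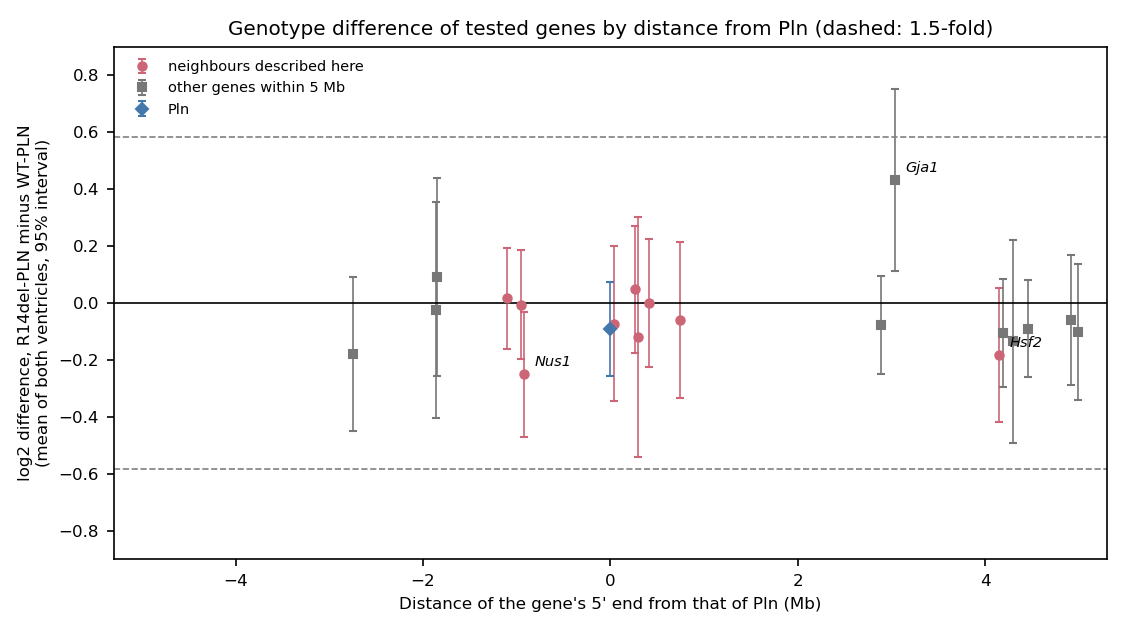
Log2 difference between R14del-PLN and WT-PLN hearts, as the mean of both ventricles with 95% intervals from limma (vertical axis), against the distance of each gene's 5′ end from that of Pln in Mb, for the 20 tested genes within 5 Mb. Red circles are the neighbours, grey squares other genes and the blue diamond Pln, and dashed lines mark 1.5-fold of TPM + 1. The neighbours lie between -0.25 (Nus1) and 0.05 (Asf1a), and Gja1, at 3.04 Mb, is the highest at 0.43.

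Gja1, which encodes the gap junction protein connexin 43, was singled out after its values were seen and lies 3.04 Mb from Pln (chromosome 10, 56377330 to 56402513). It was at 71.3, 68.9 and 97.3 TPM in WT-PLN and 94.2, 119.5 and 119.1 TPM in R14del-PLN samples of the LV, and at 88.03, 66.7 and 128.0 TPM in WT-PLN and 126.6, 125.6 and 104.0 TPM in R14del-PLN samples of the RV. The groups overlapped in both ventricles. Its log2 difference over both ventricles was 0.43 (0.11 to 0.75, limma adjusted p = 0.184) and 0.49 in the LV (0.04 to 0.94, adjusted p = 0.468), so neither passed the test. Among the 10 Mb on either side of Pln, 1 gene was called, Ddit4, also named after its values were seen, whose product restrains mTOR signalling. Ddit4 lies 6.61 Mb from Pln and fell in R14del-PLN hearts from 43.0 ± 10.3 to 14.3 ± 5.57 TPM in the LV (log2 difference -1.56, limma adjusted p = 0.0170) and from 32.1 ± 4.19 to 11.6 ± 3.34 TPM in the RV (log2 difference -1.42, limma adjusted p = 0.0372). No gene between Pln and Ddit4 was called. Of all tested genes, limma called 0.519% in the LV, 0.271% in the RV and 1.43% over both ventricles. The number tested within 10 Mb is not given here, and a link of the Ddit4 difference to the locus was not tested.

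Paralogs and binding partners of the neighbours at other loci were used as a comparison off the targeted region. The list held 17 genes, among them Cep85, Mcm8, Asf1b, Man1a2, Dcbld2, Hsf1 and the Nus1 partner Dhdds, and 13 passed the filter. Limma called 0 of 13 between genotypes in the LV, in the RV and over both ventricles, with 0, 1 (Hsf4) and 0 at an unadjusted p of 0.05 (9.6%, 6.22% and 14.5% of all genes), and their median log2 differences were -0.06, 0.003 and -0.03. Dhdds, the catalytic partner of Nus1 in dolichol synthesis, was at 14.5 ± 0.462 TPM in WT-PLN and 13.7 ± 2.37 TPM in R14del-PLN samples of the LV (log2 difference -0.09, -0.37 to 0.19, limma adjusted p = 0.890). Its mean of 12.8 TPM over all samples was close to that of Nus1. Between RV and LV, limma also called 0 of 13, with 4 in WT-PLN (Dhdds, Hsf1, Man1c1 and Slc35f5) and 2 in R14del-PLN hearts (Hsf1 and Slc35f5) at an unadjusted p of 0.05, where 14.5% and 6.57% of all genes were marked. Hsf4, Man1c1 and Slc35f5 are named here because the counts are small, after their values were seen.

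The neighbours varied together to different degrees from sample to sample. After group means were removed from log2(TPM + 1), the correlation over the 12 samples was between -0.35 and 0.81 for the 45 pairs of neighbours, with a median of 0.38, and positive for 40 pairs. The highest was between Cep85l and Man1a (0.811), followed by Cep85l and Gopc (0.806), and the lowest between the nested pair Asf1a and Mcm9 (-0.346). With Pln, it was 0.864 for Hsf2, 0.774 for Man1a, 0.767 for Slc35f1 and 0.449 for Cep85l. The 12 points share 4 group means and 1 TPM scale, on which the mitochondrial share moves all other genes together, so these correlations are a description and carry no test. The order did not follow distance, since Hsf2, the farthest neighbour, varied most closely with Pln.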

How the data were processed

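PolyA-selected stranded libraries were made from 12 heart samples, and mapping to GRCm38 with CLC Genomics Workbench 20.0.2 is stated in the methods. The deposited values are TPM, made by the authors as 1 value per gene and sample. The program, annotation and strand setting behind them are not given in the sources used here. Genotype, ventricle and replicate number were read from the labels.

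The TPM were analysed on log2(TPM + 1) with limma 3.58.1 in R 4.3.3 (lmFit and trended eBayes, with 8 residual degrees of freedom and 5.15 from the prior), as 4 group means without a replicate block. Exact permutation tests were two-sided. The code was tested on simulated data with known changes, which were larger than any difference of the neighbours. That test does not show whether differences as small as theirs would be found. Positions came from GENCODE M21, matched by symbol, and upstream sequences from RefSeq (GRCm38.p6). Other steps used Python 3.11.15, pandas 2.3.3 and scipy 1.17.1, and statmod 1.5.0 served the random block.

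Named were the 10 neighbours, Pln, any called gene within 5 Mb, tested protein-coding genes within 1 Mb, and 1 paralog or partner beside each of 7 neighbours. Gja1, Ddit4, Hsf4, Man1c1 and Slc35f5 were added after values were seen. Neighbours and lists were chosen with earlier results of these data known. Exact tests on rescaled TPM were likewise chosen after seeing the data. Protein levels were not analysed here, and 1 list of cell type markers is not reported here.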

Additional observations from a re-analysis of the deposited data

How the results depend on the processing

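Under every alternative tried, limma called 0 neighbours in each comparison: other pseudocounts (0.1, 0.5), other filters (a mean of 0.1 TPM, of 5 TPM, or none), the 3 other scalings, no intensity trend, no fold threshold, a fit to the compared samples alone, both replicate blocks, and leaving out any 1 sample or both WT-PLN samples numbered 1. Of 239 alternative counts, 235 were as reported. In the region, 1 gene (Ddit4) was called in the LV, 1 in the RV and 1 over both ventricles when the window was widened to 10 Mb. The number of exact tests at the smallest p of 0.1 was 1, and 2 without mitochondrially encoded genes, an alternative chosen after seeing the data. Among all genes tested, 65 were called in the LV (12 higher), 34 in the RV (9 higher) and 179 over both ventricles (46 higher). These counts became 104 (39 higher), 85 (29 higher) and 185 (67 higher) after quantile normalization, 99 (35 higher), 88 (32 higher) and 189 (70 higher) after upper quartile scaling, 119, 62 and 237 with the fixed replicate block, 22, 17 and 109 with no filter, and 231, 88 and 337 without both WT-PLN samples numbered 1. Without mitochondrially encoded genes 73 were called in the RV (31 higher). With 1 sample left out, the count in the LV was between 19 (without R14del-PLN LV replicate 1, and 20 without WT-PLN LV replicate 2 or 3) and 153 (without WT-PLN LV replicate 1), that in the RV between 14 (without WT-PLN RV replicate 2) and 48 (without WT-PLN LV replicate 1), and that over both ventricles between 126 (without WT-PLN RV replicate 2) and 263 (without WT-PLN LV replicate 1). It was also below 34 by more than 1.5 times in the RV without WT-PLN RV replicate 3 (17) or R14del-PLN RV replicate 3 (20), and below 65 in the LV without R14del-PLN LV replicate 2 (27). The LV difference of Nus1 was -0.25 after quantile normalization (limma adjusted p = 0.343), -0.24 after upper quartile scaling (adjusted p = 0.362), -0.35 without mitochondrially encoded genes (adjusted p = 0.257) and between -0.45 and -0.26 with 1 sample left out, and its sign was negative under every alternative in the LV, in the RV and over both ventricles. With 1 sample left out, Nus1 was between -0.25 and -0.068 in the RV and Hsf2 between -0.27 and -0.11 in the LV. Whether LV and RV samples with one number share a mouse is not stated. Their deviations from group means correlated at 0.0542 to 0.657 (mean 0.351, others -0.174). Deviations within a group sum to 0, which pushes the others down when matching samples correlate, so the others are no independent comparison. A pairing was taken only where every pair was over 0.1, and replicate 3 of R14del-PLN hearts (0.0542) was not, so the reported fit has no block. Between the 2 genotypes in one ventricle the correlations were -0.0209 to 0.219. Every sample correlated best with its own number across the ventricles, apart from replicate 3 of R14del-PLN hearts, which is a hint from the data and not from the design. The highest correlation (0.657) was that of both WT-PLN samples numbered 1, which alone had almost no Y-linked expression. If samples with one number share a mouse, the fit without a block treats them as independent. With the replicate number as a fixed block or genotype and number as a random block, 0 neighbours were called, and the limma adjusted p of Nus1 in the LV was 0.284 and 0.429. Over both ventricles, the limma adjusted p of Nus1 was 0.184 with the fixed block and 0.3315 with the random block.

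Of 1364 alternative log2 differences of the neighbours and Pln, 104 changed sign, and none of these differences was called. After quantile normalization, the log2 differences that changed sign were Dcbld1 0.047, Gopc 0.026, Mcm9 0.047 and Man1a 0.046 between genotypes in the LV, Gopc 0.054 and Man1a 0.00078 between genotypes over both ventricles, Cep85l 0.031, Asf1a 0.11 and Pln 0.085 between RV and LV of WT-PLN hearts and Gopc 0.056, Nus1 0.037 and Cep85l 0.0067 between RV and LV of R14del-PLN hearts. After upper quartile scaling, the log2 differences that changed sign were Dcbld1 0.044, Gopc 0.016, Mcm9 0.031 and Man1a 0.045 between genotypes in the LV, Gopc 0.054 and Man1a 0.0056 between genotypes over both ventricles, Cep85l 0.014, Asf1a 0.11 and Pln 0.17 between RV and LV of WT-PLN hearts and Gopc 0.060, Nus1 0.043 and Cep85l 0.026 between RV and LV of R14del-PLN hearts. Without mitochondrially encoded genes, the log2 differences that changed sign were Pln 0.0053 between genotypes in the RV, Gopc 0.022 between genotypes over both ventricles, Asf1a 0.057 and Pln 0.11 between RV and LV of WT-PLN hearts and Gopc 0.12, Nus1 0.11, Cep85l 0.085, Mcm9 0.054 and Asf1a 0.025 between RV and LV of R14del-PLN hearts. Without both WT-PLN samples numbered 1, the log2 differences that changed sign were Asf1a -0.021 between genotypes in the LV, Asf1a -0.057 between genotypes in the RV, Dcbld1 -4.3e-05, Asf1a -0.039 and Fam184a -0.011 between genotypes over both ventricles and Mcm9 -0.26 and Man1a -0.083 between RV and LV of WT-PLN hearts. With a pseudocount of 0.1, the log2 differences that changed sign were Fam184a -0.031 between genotypes over both ventricles. With a pseudocount of 0.5, the log2 differences that changed sign were Fam184a -0.0057 between genotypes over both ventricles. The cause was not tested. With each sample left out in turn, signs also changed. Between genotypes in the LV, Dcbld1 ranged from -0.079 to 0.079, Cep85l ranged from -0.28 to 0.012, Mcm9 ranged from -0.32 to 0.16, Asf1a ranged from -0.049 to 0.18, Fam184a ranged from -0.18 to 0.082 and Man1a ranged from -0.21 to 0.067. Between genotypes in the RV, Cep85l ranged from -0.17 to 0.075, Asf1a ranged from -0.057 to 0.12, Fam184a ranged from -0.047 to 0.14, Man1a ranged from -0.15 to 0.088, Hsf2 ranged from -0.24 to 0.018 and Pln ranged from -0.085 to 0.036. Between genotypes over both ventricles, Dcbld1 ranged from -0.012 to 0.067, Gopc ranged from -0.047 to 0.027, Asf1a ranged from -0.015 to 0.10, Fam184a ranged from -0.058 to 0.076 and Man1a ranged from -0.13 to 0.013. Between RV and LV of WT-PLN hearts, Mcm9 ranged from -0.22 to 0.27, Asf1a ranged from -0.17 to 0.0049, Man1a ranged from -0.15 to 0.10, Hsf2 ranged from -0.12 to 0.16 and Pln ranged from -0.096 to 0.025. Between RV and LV of R14del-PLN hearts, Gopc ranged from -0.068 to 0.037, Nus1 ranged from -0.14 to 0.032, Cep85l ranged from -0.19 to 0.11, Mcm9 ranged from -0.27 to 0.16, Fam184a ranged from -0.23 to 0.027 and Man1a ranged from -0.12 to 0.15. Read depth is unknown, so what it limits could not be given.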
